A study of Mus musculus with 6 samples.

Results

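Box H/ACA small nucleolar RNAs are described here as they were measured in whole lungs of hypoxic mice lacking Nfat5 in endothelial cells. The set holds every gene on the array whose platform symbol is Snora followed by a digit. It came to 34 genes of the 24704 named genes measured, each with 1 probe set. The class was proposed because it stood apart between knockout and control arrays in an earlier look at the same values, so the differences between the groups are given as a description of the class, with no test of it.

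The EC knockout group held 3 arrays from Nfat5(EC)-/- mice, given tamoxifen intraperitoneally at 1 mg per day on 5 days in a row. The control group held 3 arrays from Nfat5fl/fl mice that received the solvent miglyol in place of tamoxifen. Both groups carried the floxed allele and were 10 to 12 weeks old at induction. Both recovered for 2 to 3 weeks and were kept in hypoxia for 7 days. Mice of both sexes were stated. Genotype and tamoxifen cannot be told apart in this design, and the labels do not name the promoter that drove the recombinase. The design states 4 mice per group, and the submitters left out lungs with contaminating tissue such as thymus or with inadequate expression responses to hypoxia, so the arrays were selected in part on expression.

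H/ACA RNAs fold into a pair of hairpins joined by a hinge. The hinge carries the H box, and an ACA triplet lies just before the 3′ end. Each hairpin can pair with a stretch of ribosomal RNA and place a single uridine for conversion to pseudouridine by dyskerin (Dkc1), which sits in the particle with Nhp2, Nop10 and Gar1. In mammals most of these RNAs are cut out of the introns of other genes, often genes for ribosomal proteins or for translation, and the ends are then trimmed back to the bound particle.

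Whole Snora sequences were not used here. RefSeq (build GRCm38.p6) lists microRNA hairpins that overlap 2 of the 34 genes, and the shared bases are shown because they let the letters of the class's boxes be looked for. Capitals mark the ACA triplet 3 bases before the annotated end of Snora36b (bases 50 to 113 of 113, chr1:185242975-185243038, plus strand) and the only match to the H box letters ANANNA on that strand in Snora34 (bases 1 to 73 of 118, chr15:98519762-98519834, minus strand, taking the snoRNA to lie on the hairpin's strand). ANANNA also matched at 5 places in the Snora36b stretch, so a match alone does not mark an H box, and the Snora34 stretch does not reach the end where an ACA would lie.
Snora36b: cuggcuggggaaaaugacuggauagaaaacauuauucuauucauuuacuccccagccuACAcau
Snora34: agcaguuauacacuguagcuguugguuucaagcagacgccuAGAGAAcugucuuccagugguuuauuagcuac
Both mature products of the Snora36b hairpin lie wholly inside the snoRNA, with 21 and 22 bases. They are shown with the seed, bases 2 to 8, in capitals because the probe set of Snora36b may also report their precursor.
mmu-miR-664-5p: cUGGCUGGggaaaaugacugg
mmu-miR-664-3p: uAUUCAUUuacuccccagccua
The mature product of the Snora34 hairpin, mmu-miR-1291, shares 7 of its 26 bases with the snoRNA.

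The values were log2 expression summarised with RMA, and every array had a median of 2.98, a lower quartile of 2.02 and a maximum of 13.01. The table carried no detection calls, and 3 arrays a group limit the precision. Nfat5, the targeted gene, stood at 4.46, 4.48 and 3.89 in the EC knockout arrays (replicates 1, 3 and 4), against 6.65, 6.58 and 6.30 in the control arrays (replicates 1, 3 and 4). Nfat5 was lower in the knockout by 2.23 ± 0.23 log2 units (SE; limma, adjusted p = 0.00151). Lung epithelial markers were high on every array, with a mean of 9.81 to 10.18 in the knockout, below that of 10.23 to 10.50 in the control arrays, and 1 of 6, Sftpa1, was lower by 1.04 ± 0.20 log2 units (limma, adjusted p = 0.00707). Of 5 endothelial markers 2 were higher and 3 lower in the knockout, where 12.5% of all genes were called higher and 13% lower. Vwf and Cldn5 rose by 1.61 ± 0.24 and 0.91 ± 0.21 log2 units. Tek, Pecam1 and Cdh5 changed by −2.01 ± 0.36, −1.59 ± 0.34 and −1.52 ± 0.26. The mean of these markers, in which opposite changes partly cancel, stood at 7.30 to 7.87 against 7.999 to 8.24 in the controls. Thymus markers averaged 2.64 to 2.73 in the knockout and 2.49 to 3.13 in the control arrays, with none of 6 past the threshold. Red cell markers averaged 3.43 to 5.24 in the knockout and 3.80 to 4.92 in the control arrays, with none of 3 past it. Fat markers averaged 2.62 to 3.24 in the knockout and 3.44 to 4.41 in the control arrays, and 1 of 4, Ucp1, was lower. Neuronal markers averaged 2.04 to 2.45 in the knockout and 2.39 to 2.70 in the control arrays. The part these cells play in the snoRNA values was not tested, and in whole tissue fewer cells of a type and less RNA per cell cannot be told apart. Xist ranged from 2.03 to 2.28 over the knockout arrays. It reached 8.22 in a single control, replicate 1, with 2.36 and 2.37 in the remaining controls. Read from Xist, only that control array was female, so sex differed between arrays and was not balanced between the groups.

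Most H/ACA snoRNAs were higher in the EC knockout lungs. The median log2 level of the 34 genes was 6.65, 5.98 and 6.17 on knockout replicates 1, 3 and 4, against 3.84, 3.99 and 3.83 on control replicates 1, 3 and 4. All knockout medians thus lay above all control medians, and knockout replicate 1 stood highest. The median log2 fold change, knockout over control, was 2.18, where the median over all genes was 0.04. In the fit over all 24704 genes (limma, Benjamini-Hochberg adjustment, threshold 0.05), 27 of 34 members were higher, 0 were lower and 7 did not pass, where 12.5% of all genes were called higher and 13% lower. The same 27 were more than 2-fold higher, as were 7.17% of all genes, and 22 were more than 4-fold higher, as were 0.461% of all genes. At 29 members all knockout arrays lay above all control arrays, which held for 21.9% of all genes. Since the class was chosen for this contrast, nothing further is read from these counts.

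**Figure D1:**
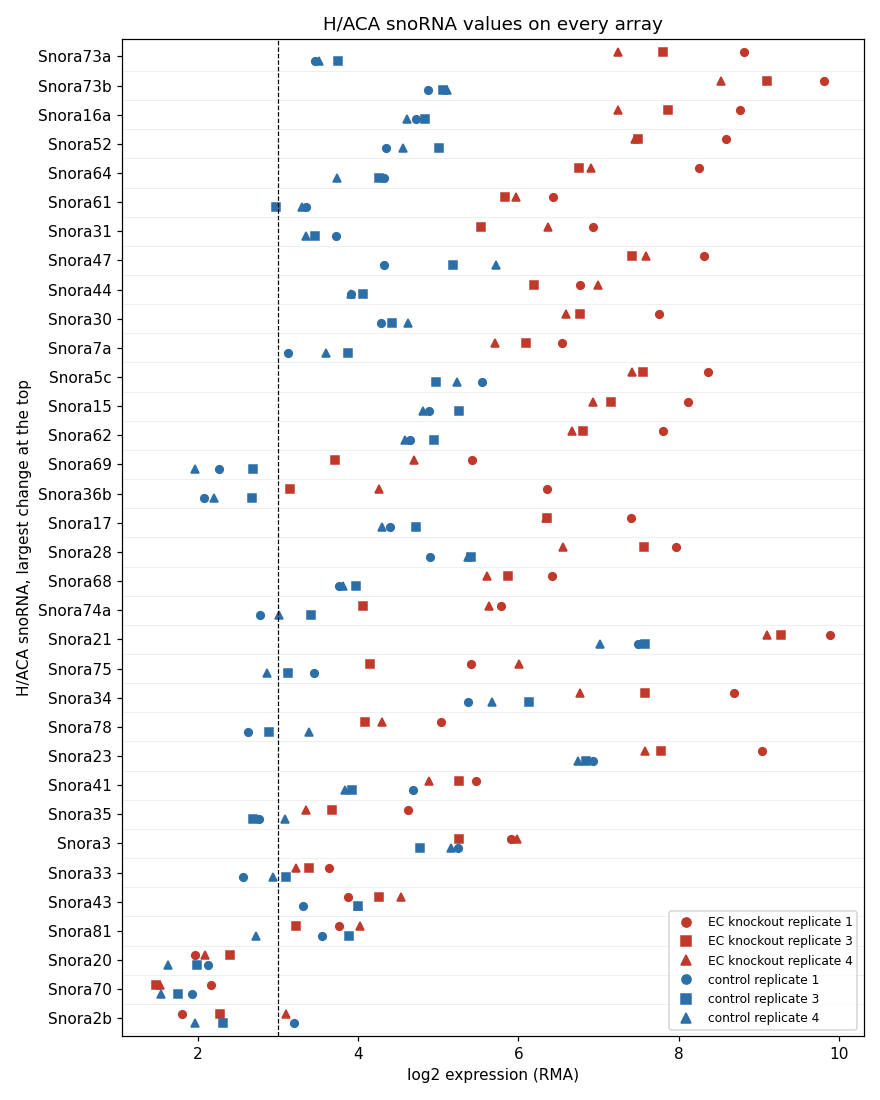
Log2 expression (x axis) of each of the 34 H/ACA snoRNAs (rows, ordered by log2 fold change) on every array, with EC knockout arrays in red above control arrays in blue; the marker shape gives the replicate number and the dashed line the median gene mean of 3.00. The groups are apart for 29 members, from Snora73a at the top down to Snora33, and overlap for the last 5.

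Replicate 1 of the knockout gave the highest value of the 3 knockout arrays for 27 of 34 members, replicate 4 for 6 and replicate 3 for 1. The members' median deviation from the knockout mean was 0.59 on replicate 1, −0.25 on replicate 3 and −0.32 on replicate 4. Among controls the same deviation was −0.08, 0.12 and −0.07 for replicates 1, 3 and 4. The spread between arrays was therefore wider within the knockout, with a median SD of 0.62 per member against 0.28 in the controls. Over all genes the median SD was 0.30 in the knockout and 0.20 in the controls. Without knockout replicate 1 the median log2 fold change was 1.88 and 25 members were called higher. Without control replicate 1, the array with high Xist, it was 2.17 with 23 called.

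The members were split at the median gene mean over all 6 arrays, 3.00, into 31 bright and 3 dim genes. Bright members had median levels of 6.93, 6.19 and 6.36 on the knockout arrays and 4.29, 4.07 and 3.91 on the control arrays (replicates 1, 3 and 4), and a median change of 2.27 log2 units. All 27 called members were bright. The split uses the knockout arrays too, so a member can be bright through its change. The called Snora69, Snora36b, Snora35 and Snora78 had control means of 2.31, 2.32, 2.84 and 2.97, below 3.00. The contrast of bright and dim members is thus fixed in part by the change itself. Split at the control mean instead, 27 members were bright with a median change of 2.37 and 7 were dim with a median of 0.55. The dim members had median levels of 1.97, 2.27 and 2.09 on the knockout arrays and 2.13, 1.99 and 1.63 on the control arrays, and their median change was −0.01. The groups did not separate there, at levels near the arrays' lower quartile of 2.02. A split at the upper quartile of gene means (4.34) left 22 members above it, with a median change of 2.55, and 12 members at or below it, with a median of 0.79. The change was rank-correlated with the mean level across the 34 members at a rho of 0.56, and with the control level alone at 0.34. These are descriptions across genes of the same arrays, and the mean level holds the knockout values themselves.

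Snora73a and Snora73b had the largest differences. They are copies of the RNA known as U17 or E1, which takes part in cleavage of the ribosomal RNA precursor and is not known as a guide of pseudouridylation. Both are 205 bases long, lie 248 bases apart on chromosome 4 (132352775 to 132352979 and 132352322 to 132352526) and are contained in the long noncoding RNA gene Snhg3. Snora73a stood at 8.82, 7.80 and 7.25 on the knockout arrays, against 3.46, 3.75 and 3.51 on the control arrays. Its log2 fold change was 4.38 ± 0.36 (SE, n = 3 per group), a 20.8-fold difference. Snora73b stood at 9.81, 9.10 and 8.53 in the knockout and at 4.87, 5.05 and 5.11 in the controls, a change of 4.14 ± 0.31 or 17.6-fold. In both, the lowest knockout array lay more than 3 log2 units above the highest control array. The copies may share probes, so their values may not be separate measurements.

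Snora16a, Snora61 and Snora44 lie within 1 kb of each other in another long noncoding host, Snhg12, on chromosome 4. Snora16a was at 8.77, 7.87 and 7.24 in the knockout and 4.72, 4.83 and 4.60 in the controls, a log2 fold change of 3.24 ± 0.34. Snora61, annotated with only 62 bases, was at 6.43, 5.83 and 5.98 in the knockout and 3.35, 2.98 and 3.29 in the controls, a change of 2.87 ± 0.22. Snora44 was at 6.76, 6.19 and 6.99 in the knockout and 3.91, 4.07 and 3.91 in the controls, a change of 2.69 ± 0.24. All 3 RNAs of this host separated the groups, and their changes lay within 0.55 log2 units of each other. The other members in long noncoding hosts were Snora17 and Snora43 in Snhg7 and Snora74a, the RNA known as U19, in Snhg4. Snora74a was at 5.78, 4.06 and 5.64 in the knockout and 2.78, 3.41 and 3.01 in the controls, a change of 2.09 ± 0.42.

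The promoters of Snhg3 and Snhg12 are shown because they host Snora73a, Snora73b and Snora16a, the members with the largest changes. Within each of these hosts the snoRNAs also had similar log2 fold changes, at most 0.55 units apart. In Snhg12 the highest knockout array was replicate 1 for Snora16a and Snora61 and replicate 4 for Snora44. Any part of the promoters in these changes was not tested. RefSeq gives 250 bases before to 50 after the start. Capitals mark TATAAA on the printed strand and the longest run of pyrimidines from 30 bases before to 50 after the start. The TATAAA marked in Snhg3 lies after the annotated start, within the last 50 bases printed. Snhg3 lies at chr4:132353637-132353936 on the minus strand and Snhg12 at chr4:132308428-132308727 on the plus strand.
Snhg3: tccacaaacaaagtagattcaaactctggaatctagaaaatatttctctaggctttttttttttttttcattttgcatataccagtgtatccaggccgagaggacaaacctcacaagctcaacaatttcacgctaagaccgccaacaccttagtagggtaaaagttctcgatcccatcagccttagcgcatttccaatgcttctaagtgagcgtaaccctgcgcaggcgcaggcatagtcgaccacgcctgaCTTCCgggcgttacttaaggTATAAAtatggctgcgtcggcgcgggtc
Snhg12: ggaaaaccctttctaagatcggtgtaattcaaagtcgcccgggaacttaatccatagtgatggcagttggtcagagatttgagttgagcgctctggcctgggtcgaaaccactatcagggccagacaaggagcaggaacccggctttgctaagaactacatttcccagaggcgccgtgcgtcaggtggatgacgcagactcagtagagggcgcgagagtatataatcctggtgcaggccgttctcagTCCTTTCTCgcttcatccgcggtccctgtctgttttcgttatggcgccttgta
TATAAA was found on either strand in 7 of 28 promoters of the host genes and in 13.6% of all 32851 promoters of the same length. The longest pyrimidine run in that window had a median of 6.5 bases over host promoters and 6 over all promoters. The search covered 26 of 29 host genes, and matches describe letters only.

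Of the 34 members, 11 are contained in ribosomal protein genes. Their median log2 fold change was 2.11, with 8 called higher and 0 lower. Snora52, in the ribosomal stalk gene Rplp2, stood at 8.59, 7.49 and 7.46 in the knockout and 4.35, 5.01 and 4.56 in the controls, a change of 3.21 ± 0.33. Snora64, a guide for large-subunit ribosomal RNA in human cells and contained in Rps2, stood at 8.26, 6.75 and 6.90 in the knockout and 4.32, 4.26 and 3.74 in the controls. Its change was 3.20 ± 0.38, or 9.19-fold. Neither RNA had overlapping groups.

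Snora21 in Rpl23, which guides modification of large-subunit ribosomal RNA in human cells, was the member with the highest mean probe set signal. It stood at 9.88, 9.28 and 9.10 in the knockout and 7.49, 7.58 and 7.01 in the controls, a change of 2.06 ± 0.26. Snora7a in Rpl32 differed by 2.58 ± 0.28 log2 units, Snora62 in Rpsa by 2.37 ± 0.30 and Snora69 in Rpl39 by 2.31 ± 0.40. In each of these 3 the knockout arrays lay above the controls. Snora78, which lies inside the annotated spans of both Rps2 and Snhg9, differed by 1.50 ± 0.30.

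The remaining 3 members in ribosomal protein genes were among those that did not pass. Snora3 in Rpl27a stood at 5.91, 5.26 and 5.98 in the knockout and 5.25, 4.77 and 5.16 in the controls, and Snora33 in Rps12 at 3.64, 3.39 and 3.23 against 2.57, 3.10 and 2.94. Their log2 fold changes were 0.65 ± 0.25 and 0.55 ± 0.22, with the knockout arrays just above the controls in both. Snora70 in Rpl10 stood at 2.16, 1.48 and 1.53 in the knockout and 1.92, 1.75 and 1.53 in the controls, a change of −0.01 ± 0.24.

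Members in other protein-coding genes spanned nearly as wide a range. Snora31 in Tpt1 differed by 2.76 ± 0.33, Snora30 in the chromatin remodeller Srcap by 2.59 ± 0.30 and Snora15 in the chaperonin gene Cct6a by 2.42 ± 0.31. Snora47 in Zbed3 stood at 8.31, 7.42 and 7.59 in the knockout and 4.32, 5.18 and 5.72 in the controls, a change of 2.70 ± 0.37. Snora5c in Tbrg4 stood at 8.37, 7.55 and 7.41 in the knockout and 5.55, 4.98 and 5.23 in the controls, a change of 2.52 ± 0.29. In all 5 of these the groups were apart, by more than 1 log2 unit.

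Snora28, in the translation initiation gene Eif5, stood at 7.96, 7.57 and 6.56 in the knockout and 4.89, 5.41 and 5.37 in the controls, a change of 2.14 ± 0.35. Snora23, in the import receptor gene Ipo7, stood at 9.04, 7.78 and 7.58 in the knockout and 6.92, 6.84 and 6.75 in the controls. Its change of 1.30 ± 0.35 rested in part on knockout replicate 1, which lay more than 1 log2 unit above the other knockout arrays. Without that array the change was 0.85 and the call was kept (limma, adjusted p = 0.017). The call of Snora23 was lost when any single control array was left out. Snora75, in the nucleolin gene Ncl, differed by 2.04 ± 0.42, with 5.41, 4.14 and 6.005 in the knockout against 3.45, 3.12 and 2.87 in the controls.

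Of the RNAs that overlap microRNA hairpins, Snora36b varied most of all members between knockout arrays. Snora36b, in Rab3gap2, stood at 6.35, 3.16 and 4.26 in the knockout and 2.08, 2.67 and 2.20 in the controls. Its SD was 1.62 in the knockout against 0.31 in the controls, and the log2 fold change of 2.27 ± 0.66 lost its call without knockout replicate 4 or any single control array. Snora34, in Kansl2, stood at 8.69, 7.58 and 6.77 in the knockout and 5.37, 6.13 and 5.67 in the controls. Its change was 1.95 ± 0.43, with a knockout SD of 0.96, and its call was lost without control replicate 1. Snora74a and Snora75, which overlap no hairpin, had much the same knockout SDs, 0.96 and 0.95.

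Snora41 and Snora35 had the smallest changes among called members. Snora41, in the elongation factor gene Eef1b2, stood at 5.47, 5.26 and 4.89 in the knockout and 4.69, 3.93 and 3.84 in the controls, a change of 1.06 ± 0.27. Snora35, whose host is the serotonin receptor gene Htr2c and which is known from brain, stood at 4.62, 3.67 and 3.35 in the knockout and 2.76, 2.69 and 3.09 in the controls, a change of 1.04 ± 0.32. Htr2c itself stood at 1.67, 2.13 and 3.26 in the knockout and 3.22, 2.98 and 2.50 in the controls and did not pass. Snora35 lost its call with cyclic loess, with the replicate block and when any array other than knockout replicate 4 was left out. Snora41 lost it without knockout replicate 1 or 3 or control replicate 3 or 4, and neither passed at an adjusted p under 0.01.

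The members with overlapping groups were Snora43, Snora81, Snora20, Snora70 and Snora2b. Snora43 stood at 3.88, 4.26 and 4.54 in the knockout and 3.31, 4.00 and 4.00 in the controls, a change of 0.46 ± 0.26. Snora81, in the initiation factor gene Eif4a2, stood at 3.76, 3.23 and 4.03 in the knockout and 3.56, 3.89 and 2.72 in the controls, a change of 0.28 ± 0.33. The groups overlapped, with the highest value on a knockout array and the lowest on a control array. Snora20, in the chaperonin gene Tcp1, stood at 1.97, 2.40 and 2.09 in the knockout and 2.13, 1.99 and 1.63 in the controls, and Snora2b at 1.80, 2.27 and 3.10 against 3.20, 2.32 and 1.97. Their changes were 0.23 ± 0.22 and −0.11 ± 0.39. Snora20, Snora70 and Snora2b were the dim members, with means of 2.04, 1.73 and 2.44 over all arrays. The nearest bright members were Snora33, Snora35 and Snora36b, with means of 3.14, 3.36 and 3.45.

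Some annotated spans hold several members, which can be set side by side. In Kansl2, Snora34 differed by 1.95 and the dim Snora2b by −0.11 log2 units. In Snhg7, Snora17 stood at 7.40, 6.35 and 6.34 in the knockout and 4.40, 4.72 and 4.30 in the controls, a change of 2.23, while Snora43 changed by 0.46. In the span of Rps2, Snora64 differed by 3.20 and Snora78, which also lies in the span of Snhg9, by 1.50. Strand was not used, so a shared host is not established for this pair. Changes within a span were thus up to 2.06 log2 units apart, in Kansl2. They were closest, at 0.19, for Snora61 and Snora44 in Snhg12.

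The 34 members lie in 29 annotated host genes, 24 of which were measured. Hosts were taken from containment in the gene span of RefSeq build GRCm38.p6, whose gene table gives no strand. Of the 24 measured hosts 5 were higher in the knockout, 7 were lower and 12 did not pass (limma over all genes). Of all genes 12.5% were called higher and 13% lower, 25.5% in either direction. The median host log2 fold change was −0.34, with a range of −2.05 to 2.03, and 17 hosts had a negative and 7 a positive change. The measured hosts therefore did not move in a single direction, while their snoRNAs, chosen for their change, were mostly higher. Several hosts had low values, near or below the arrays' lower quartile of 2.02. Rpl10, Tpt1, Rpsa, Snhg12 and Snhg7 had means of 1.35, 2.13, 2.14, 2.23 and 2.31 over all arrays. Rps2 and Rpl23 averaged 2.42 and 2.70 in the controls. At such levels background is not known, so these probe sets may not follow their genes.

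Rps2 rose most, to 4.94, 3.82 and 4.58 in the knockout against 2.09, 2.31 and 2.87 in the controls, a change of 2.03 ± 0.32 (limma, adjusted p = 0.00358). Snhg9, whose annotated span also holds Snora78, rose by 1.47 ± 0.28 and Rpl23 by 1.35 ± 0.32. Tbrg4 and Zbed3 rose by 0.64 ± 0.19 and 0.68 ± 0.20, calls that were lost when any control array or knockout replicate 1 or 4 was left out, with the replicate block and with the intensity trend and robust eBayes. Rpl23 lost its call without control replicate 1 or 3.

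Other hosts were lower in the knockout. Ipo7 stood at 2.87, 5.06 and 2.28 in the knockout and 5.37, 5.35 and 5.65 in the controls, a change of −2.05 ± 0.59 whose call was lost when any array other than knockout replicate 3 was left out. Eif5 stood at 5.20, 5.86 and 4.56 in the knockout and 7.04, 7.00 and 6.51 in the controls, a change of −1.64 ± 0.32 (limma, adjusted p = 0.00786). Ncl, which encodes the nucleolar protein nucleolin, differed by −1.31 ± 0.22, Tcp1 by −1.22 ± 0.19, Cct6a by −1.46 ± 0.32, Eif4a2 by −0.91 ± 0.18 and Srcap by −0.72 ± 0.20. Cct6a lost its call without control replicate 1, and Srcap without knockout replicate 1 or any control array.

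The noncoding hosts of Snora73a, Snora73b and Snora16a did not pass the threshold. Snhg3 stood at 2.55, 2.92 and 3.06 in the knockout and 3.03, 3.26 and 2.58 in the controls, a change of −0.11 ± 0.24. Snhg12 stood at 1.58, 2.98 and 1.74 in the knockout and 2.71, 2.57 and 1.77 in the controls, a change of −0.25 ± 0.39. Both lay near or below the array median, where background is not known. Of 30 pairs of a member and a measured host, the member's change was above the host's in 28 and below it in 2. The median difference was 2.20 log2 units. The members were chosen for their own change, so this count and this difference were largely fixed in advance. Across the 30 pairs, which share hosts, member and host changes correlated at a Spearman rho of 0.27 and a Pearson r of 0.21.

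**Figure D2:**
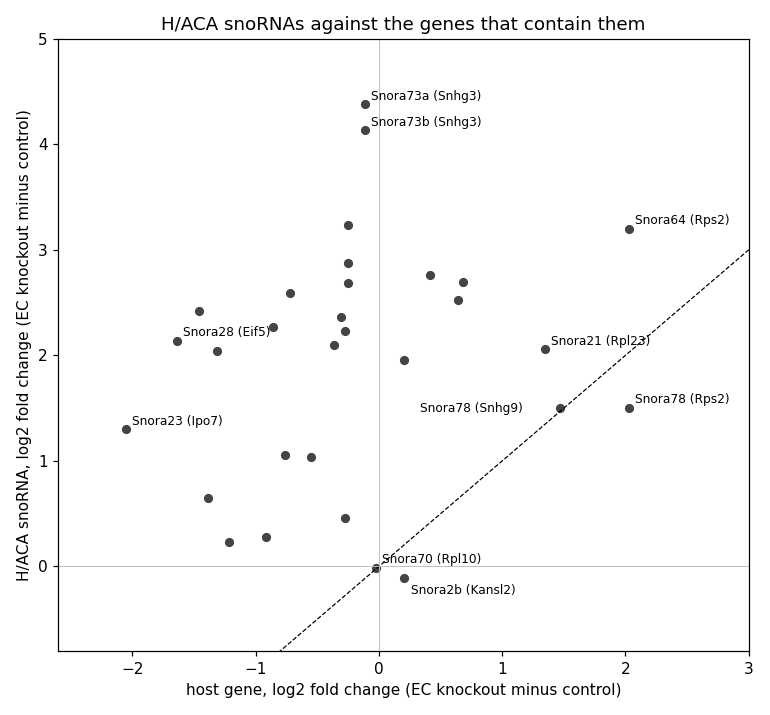
Log2 fold change (EC knockout minus control) of each H/ACA snoRNA (y axis) against that of the measured gene that contains it (x axis), 1 point per pair of 30; the dashed line marks equal changes and some pairs are named as snoRNA (host). All but 2 points lie above the line, the exceptions being Snora78 with Rps2 and Snora2b with Kansl2. The snoRNAs were chosen for their change, so most points were bound to lie above it.

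Most genes that build and trim the H/ACA particle did not pass the threshold. Of 21 measured genes on the list 2 were higher, 5 were lower and 14 did not pass, where 12.5% of all genes were called higher and 13% lower, and their median change was 0.11 log2 units. Among the core proteins, Dkc1, the pseudouridine synthase, stood at 3.36, 3.06 and 3.21 in the knockout and 4.05, 4.13 and 3.83 in the controls. Dkc1 was lower by 0.79 ± 0.19 log2 units (limma, adjusted p = 0.017). Nhp2, which binds the RNA within the particle, stood at 5.55, 5.19 and 5.52 in the knockout and 4.44, 4.46 and 4.50 in the controls. Nhp2 rose by 0.95 ± 0.19 (limma, adjusted p = 0.00806). Both separated the groups, in opposite directions. Gar1 at 0.46 ± 0.20 and Nop10 at 0.10 ± 0.22 did not pass.

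Among assembly factors, the ATPase gene Ruvbl2 rose by 0.89 ± 0.20 and Shq1, a chaperone of dyskerin, was lower by 0.64 ± 0.20. Shq1 lost its call when any single array was left out, with the intensity trend and robust eBayes, and with protein-coding scaling, and Ruvbl2 without control replicate 3. Neither passed at an adjusted p under 0.01. Naf1, which holds the place of Gar1 during assembly, stood at 0.41 ± 0.25, Ruvbl1 at 0.36 ± 0.26 and Pih1d1 at 0.43 ± 0.31, none past the threshold. The partners in nucleolus and Cajal body did not pass, with Nolc1 at 0.01 ± 0.19, Tcof1 at 0.55 ± 0.20, Coil at −0.44 ± 0.23 and Wrap53 at 0.61 ± 0.33.

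Of 8 genes for trimming and turnover of RNA 3′ ends, 3 were lower and 0 higher, beside the same 13% and 12.5% of all genes. Mtrex, the helicase that feeds the nuclear exosome, stood at 3.35, 4.06 and 3.78 in the knockout and 5.40, 5.37 and 4.89 in the controls. Its change was −1.49 ± 0.25 (limma, adjusted p = 0.00413). Dis3, an exosome nuclease, differed by −1.19 ± 0.26 and Tent4b, which adds short adenosine tails to RNAs bound for trimming, by −1.03 ± 0.21. Dis3 lost its call without control replicate 1 or 3, as did Dkc1. The deadenylase genes Parn at −0.48 ± 0.32 and Toe1 at 0.16 ± 0.23 did not pass, nor did the exosome genes Exosc3 at −0.52 ± 0.24, Exosc2 at 0.11 ± 0.22 and Exosc10 at 0.27 ± 0.18.

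**Figure D3:**
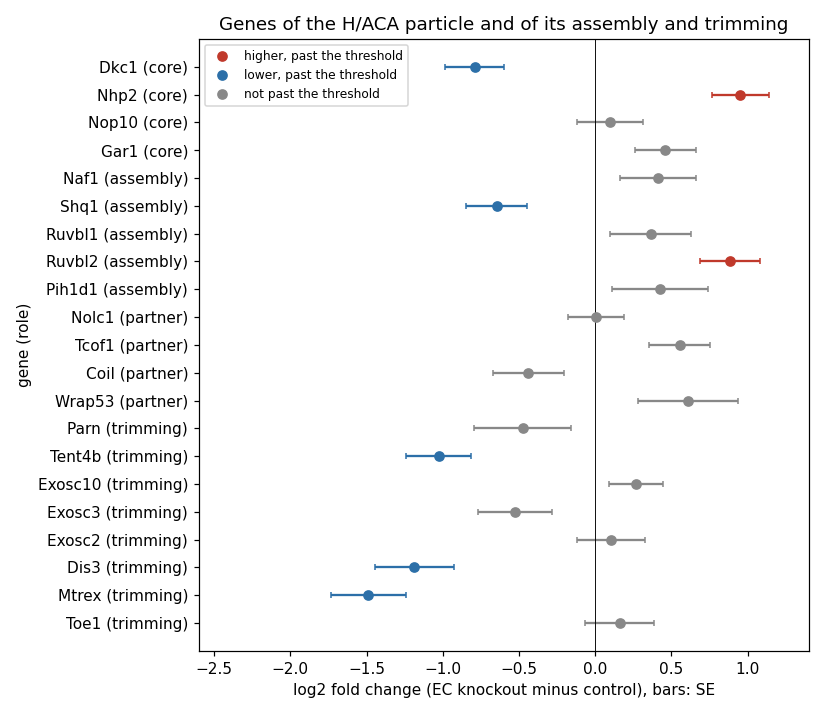
Log2 fold change (x axis, EC knockout minus control, with limma's SE as bars, n = 3 per group) of the 21 measured genes of the H/ACA particle and of its assembly and trimming (rows, with the role in brackets). Red genes were higher and blue genes lower past the threshold: Nhp2 and Ruvbl2 in red, and Dkc1, Shq1, Tent4b, Dis3 and Mtrex in blue.

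Other small RNA classes gave a setting for these values. Box C/D snoRNAs, the guides of ribose methylation, had median levels of 8.54, 7.48 and 7.27 in the knockout and 4.57, 4.95 and 5.03 in the controls, with 53 of 65 called higher, 0 lower and a median change of 2.21 log2 units. The scaRNAs, guides for spliceosomal RNAs that carry either box type, had medians of 5.16, 5.37 and 5.46 in the knockout and 4.01, 3.90 and 4.05 in the controls, with 5 of 8 called higher and a median change of 1.70. Terc, the telomerase RNA, ends in an H/ACA domain. It stood at 4.11, 3.58 and 3.71 in the knockout and 3.33, 2.78 and 2.56 in the controls, a change of 0.91 ± 0.25 whose call was lost without knockout replicate 1 or without control replicate 3 or 4. MicroRNA genes had medians of 1.87, 1.84 and 1.81 in the knockout and 1.92, 2.05 and 1.90 in the controls. Their median change was 0.02 over 534 genes, with 43 called higher and 40 lower. These medians lay near or below the arrays' lower quartile of 2.02, where a change may not show. The share called higher over all genes was 12.5%, and differences between the classes were not tested.

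**Figure D4:**
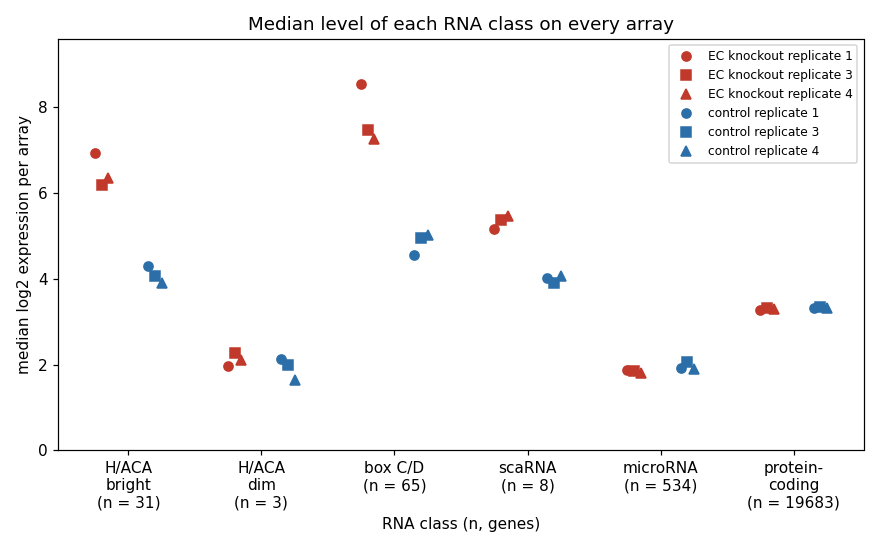
Median log2 expression on each array (y axis) for 6 RNA classes (x axis, with the number of genes), with EC knockout arrays in red to the left of control arrays in blue; the marker shape gives the replicate number. Bright H/ACA, box C/D and scaRNA medians are higher on all knockout arrays, while dim H/ACA and microRNA medians stay near 2.

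The annotated members ran from 61 to 205 bases, with a median of 121, and lie on 18 chromosomes. The log2 fold change was rank-correlated with annotated length at a rho of 0.12 across the 34 genes, which are not independent of each other. On chromosome X lie 3 members, Snora35, Snora69 and Snora70, with changes of 1.04, 2.31 and −0.01. Members in protein-coding hosts had a median change of 2.09 (26 genes, 20 called higher). Those in long noncoding hosts alone had a median of 2.78 (8 genes, 7 called higher). The share called higher over all genes was 12.5%, and the members were chosen for this contrast. The difference between the kinds of host was not tested.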

How the data were processed

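Whole lung RNA was hybridised as biotin-labelled cRNA to 6 single-colour arrays, per the labels' protocols. The deposited log2 values, 1 per probe set and array, were made with RMA per the submitters' processing notes, which name no version or probe set definition. The deposited columns share 1 set of quantiles, within 0.00183. Of 25428 probe sets 24705 had 1 symbol and 723 none; where a symbol had several probe sets the one of higher mean was used (24704 genes). Entrez numbers linked genes to RefSeq GRCm38.p6. Groups followed the titles. limma 3.58.1 (R 4.3.3; lmFit, eBayes) compared knockout with control over all genes with no filter, with Benjamini-Hochberg adjustment and a threshold of 0.05; it was tested on simulated data. SEs are limma's moderated ones. The labels do not tie each array to a separate animal, so p-values measure the spread between these samples. Members and lists were chosen with earlier results of these data known. Per array values were given by rule for the 8 brightest members, the 6 largest and 6 smallest changes among bright members, the 3 on either side of the bright and dim split, the dim members and lettered copies; values of further members were added after they were seen. Alternatives were other scalings, filters, variance models, thresholds, a replicate block and leaving out each array. One member in a ribosomal protein gene is counted but its host is not reported here.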

Additional observations from a re-analysis of the deposited data

Results flagged for a closer look

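Among the 723 probe sets without a gene symbol, which the comparisons did not use, 102 were higher in the EC knockout than in the control arrays and 107 were lower (limma, with these probe sets included in the adjustment). Their median log2 fold change was 0.04. The 14.1% called higher stood near the 12.5% of named genes called higher.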

How the results depend on the processing

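The count of H/ACA snoRNAs called higher, 27 of 34, was 23 to 26 when 1 array was left out, 22 at an adjusted p under 0.01 and 26 with the replicate block or cyclic loess. Their median log2 fold change was 1.88 to 2.52 with 1 array left out, and that of the bright members 1.90 to 2.56. The dim median was −0.11 to 0.25 with 1 array left out, 0.55 with the split at the control mean (7 genes) and 0.79 with it at the 75th percentile (12 genes). Genes changed in all came to 2882 to 6155 with 1 array left out (2882 without control replicate 3, 3141 without control replicate 1) and to 2560 at an adjusted p under 0.01. Of the particle's protein genes 3 to 7 were called with 1 array left out (3 without control replicate 3, 4 without control replicate 1) and 3 at the stricter threshold. Of the host genes it was 7 to 13 with 1 array left out (7 without control replicate 1 or 3, 8 without knockout replicate 1 or control replicate 4), 6 at the stricter threshold, and 10, with 3 in place of 5 higher, under the replicate block or the intensity trend. Scaling on protein-coding genes split the 6349 changed genes into 3367 higher and 2982 lower. No called value changed sign. Replicate numbers are shared by the groups. With each group's mean per gene subtracted, same-numbered arrays correlated at −0.01 to 0.06 and differently numbered arrays at −0.11 to 0.11. These are correlations of deviations within groups, not of the arrays' levels. Whether same-numbered arrays belong together was not tested. Without detection calls, dim members have no known floor.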
